A study of Homo sapiens with 6 samples.

Results

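KMT2A and AFF1 are the genes joined by the KMT2A-AFF1 fusion, and their loci were described here by the accessible regions that 12 ATAC-seq peak lists placed over them. In ATAC-seq the Tn5 transposase cuts open DNA, and a peak is a stretch with more cuts than its surroundings. Members were all peaks overlapping a 120 kb window of chromosome 11 around KMT2A (118.29 to 118.41 Mb) or a 240 kb window of chromosome 4 around AFF1 (87.84 to 88.08 Mb), in hg19 coordinates. They numbered 309 of 718792 peaks, 70 over KMT2A and 239 over AFF1. Peaks of any list that touched or overlapped were joined into 38 regions, 8 over KMT2A and 30 over AFF1, of 130872 regions in all. Regions are numbered from left to right in each window, which is the direction in which both genes are read.

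The 12 lists came from 6 samples of 3 B-cell acute lymphoblastic leukemia lines, labelled as from bone marrow. RS4;11, SEM and RCH (taken to be RCH-ACV) each carried either sh2, a short hairpin RNA against NSD2, or NT, a non-targeted control hairpin. NSD2 is an enzyme that methylates histone H3, and a point mutation of it is the subject of the series. The labels do not say which of the lines carry that mutation. RS4;11 and SEM carry the KMT2A-AFF1 fusion and RCH does not, so that each comparison of fusion lines with RCH sets 2 lines against 1 and also compares unrelated cell lines. Each sample had 2 lists, read as 2 libraries of 1 sample, and the labels do not say whether they came from separate cultures. NSD2 levels and the cell type markers of the lines were not analysed here.

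KMT2A is a histone methyltransferase that marks active promoters and binds DNA through a CXXC domain, which recognises CpG dinucleotides without methylation. AFF1 is a scaffold of the super elongation complex, which releases paused RNA polymerase. The fusion joins the DNA-binding front part of KMT2A to the rear part of AFF1, is transcribed from the KMT2A start and drives an aggressive leukemia of early B cells. The reciprocal product, where present, is transcribed from the AFF1 start. Reads were placed on the unrearranged genome, so normal and rearranged copies of either gene add up in every peak.

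The sequences upstream of the annotated starts are shown because the CXXC domain reads CpG. The RefSeq promoter table (GRCh38.p14) holds 1 start for KMT2A and 2 for AFF1. The 250 bases before each start are on the plus strand at chr11:118436242-118436491, chr4:86934761-86935010 and chr4:87007021-87007270 of that build, and capitals mark CG.
KMT2A start: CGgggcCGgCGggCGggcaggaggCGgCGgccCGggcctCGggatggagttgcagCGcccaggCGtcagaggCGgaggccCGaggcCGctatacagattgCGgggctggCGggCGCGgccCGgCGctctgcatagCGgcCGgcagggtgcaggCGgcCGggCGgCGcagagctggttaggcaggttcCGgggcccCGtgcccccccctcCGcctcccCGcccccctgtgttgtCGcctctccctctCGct
AFF1 upstream start: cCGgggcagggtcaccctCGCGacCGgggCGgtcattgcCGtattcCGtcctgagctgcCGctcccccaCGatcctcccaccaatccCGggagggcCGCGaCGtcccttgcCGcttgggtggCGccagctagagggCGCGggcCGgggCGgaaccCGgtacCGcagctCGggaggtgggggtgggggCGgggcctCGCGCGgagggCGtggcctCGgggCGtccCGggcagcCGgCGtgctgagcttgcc
AFF1 downstream start: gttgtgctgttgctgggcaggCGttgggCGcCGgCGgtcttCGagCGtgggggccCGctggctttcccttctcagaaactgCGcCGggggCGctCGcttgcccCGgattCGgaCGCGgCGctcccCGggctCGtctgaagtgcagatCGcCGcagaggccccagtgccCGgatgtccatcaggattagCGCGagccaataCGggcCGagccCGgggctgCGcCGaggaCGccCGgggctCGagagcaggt
They hold 31, 32 and 31 CG dinucleotides, and CG reads the same on both strands. Of the 35116 promoters of that table, 93.9% hold at least 1 CG in these 250 bases, with a median of 11. At least 31 were found in 10.9% of them and at least 32 in 9.52%. All 3 stretches are thus CpG-rich, with a GC content of 78.4%, 76.8% and 71.2%.

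No hg19 annotation was used, so the peaks were tied to the AFF1 starts by spacing alone and no position was carried from 1 build to the other. The AFF1 starts lie 72.3 kb apart in the table. The strongest peaks of AFF1 regions 3 and 13, both open in all 12 lists, lay 71.9 kb apart in hg19, a difference of 360 bases. The next nearest pair of AFF1 regions missed that spacing by 643 bases. The start of TMEM25, which follows KMT2A on the chromosome, lies 94.7 kb after that of KMT2A in the table, and KMT2A regions 4 and 8 lay 94.6 kb apart, a difference of 110 bases. The next nearest pair of KMT2A regions missed that spacing by 719 bases. AFF1 regions 3 and 13 are called start regions below for their spacing. KMT2A region 4 was taken as the downstream member of the closest pair of regions open in all 12 lists. Its spacing to region 8 was computed afterwards and did not select it. It is also called a start region below. These start regions were looked for only among regions open in all 12 lists, so that they were open in every list is not a result. At its upstream start AFF1 has neighbours starting on the opposite strand in that table, AFF1-AS1 and C4orf36, and ATAC-seq does not read strand.

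A single value was deposited by the authors for every peak, and from its range it was taken as fold enrichment over background within the library. It was not normalized between lists, so folds of several lists side by side show no change in level, while a ratio of 2 peaks within a list does not depend on a factor common to that list. Lists held 41594 to 84794 peaks, and the shortest, both of RCH sh2, also had the lowest median folds (5.42 and 5.32, against 6.08 and 6.11 in RCH NT). Depth is not known.

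The KMT2A locus held 8 regions, from 200 to 962 bp wide. Regions 1, 3, 4 and 6 were open in all 12 lists, that is 4 of 8. Of all regions, 16.5% were open in all 12 lists, and on chromosome 11 the share was 18.3%. Region 8 was open in 11 lists, region 7 in 9, and regions 2 and 5 in 1 each. Every list thus had peaks at the start region, which was chosen among such regions, at a place 11.4 kb upstream of it (region 1, between the centres) and near the far end of the gene.

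**Figure D1:**
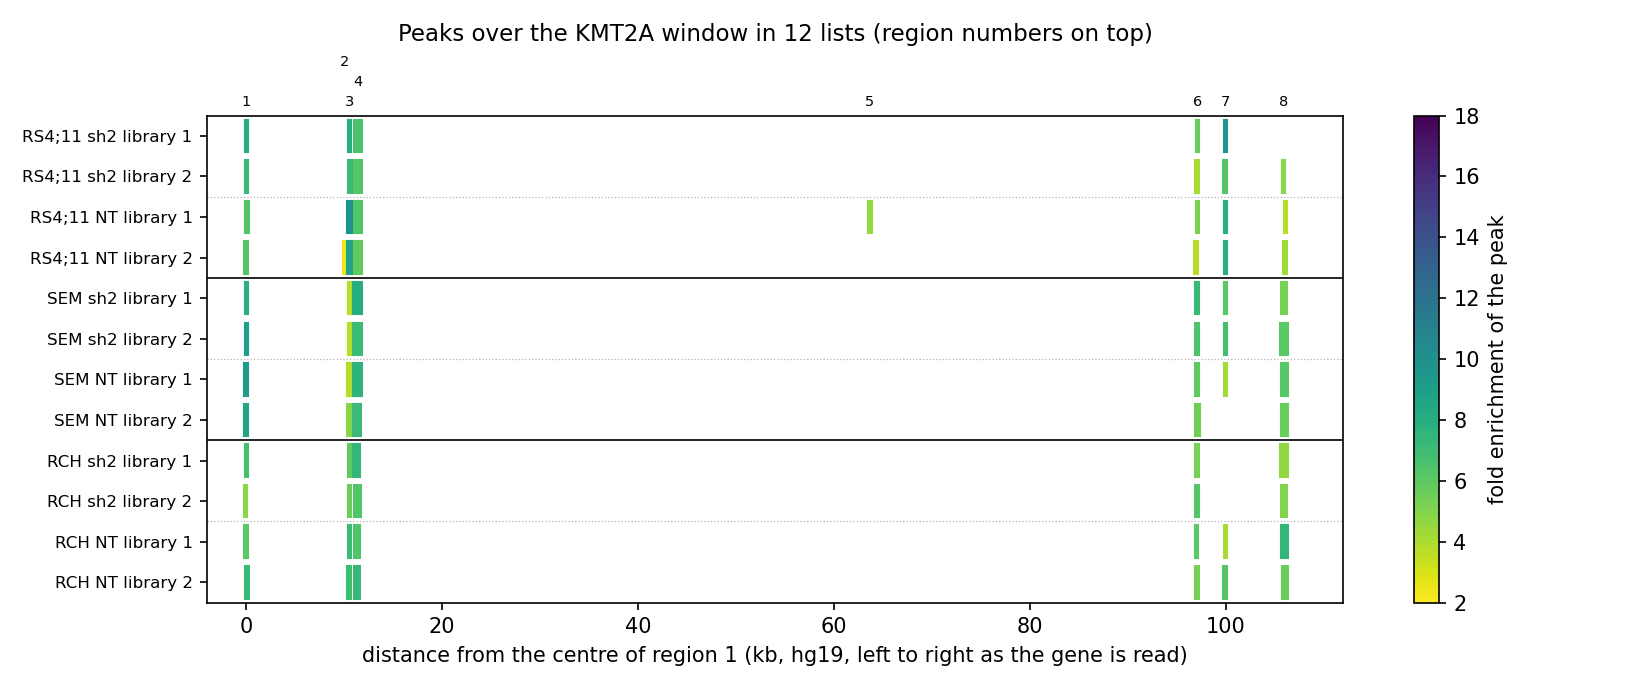
Peaks over the KMT2A window. The horizontal axis is the distance in kb from the centre of region 1 and each row is 1 list, with sh2 rows above NT rows in each line. Bars are peaks, coloured by fold enrichment and drawn no narrower than a fixed width so that short peaks stay visible. Region 5 is present in 1 list only, and the stretch on either side of it is empty in all 12 lists.

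KMT2A region 4, the start region (chr11:118306594-118307555), was the widest of the window at 962 bp. Its fold was 6.54 and 6.29 with sh2 and 6.33 and 5.88 with NT in RS4;11, 8.12 and 7.08 with sh2 and 7.63 and 7.13 with NT in SEM, and 7.40 and 6.37 with sh2 and 6.42 and 7.29 with NT in RCH. Within their lists these folds stood between the 39.0th and the 72.6th percentile, so the KMT2A start was a middling peak in every line. The sh2 and NT folds overlapped in each line.

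KMT2A region 3 (chr11:118305989-118306491) is centred 834 bp before region 4. Its fold was 7.95 and 7.17 with sh2 and 9.76 and 8.74 with NT in RS4;11, 3.69 and 3.81 with sh2 and 3.87 and 4.83 with NT in SEM, and 5.89 and 5.61 with sh2 and 7.18 and 7.01 with NT in RCH. RS4;11 stood high and SEM low. Within their lists these folds stood between the 51.0th and the 72.2nd percentile in RS4;11 and between the 55.0th and the 62.95th in RCH. In SEM they stood between the 5.46th and the 24.9th, so the SEM values were weak peaks of their lists. Both sh2 folds lay below both NT folds in each line. Over all regions open in all 12 lists, 2.1% had such lower sh2 folds in each of the 3 lines. Of the regions open in all 4 lists of a line, 31.2% did so within RS4;11, 14.4% within SEM and 59.5% within RCH.

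The ratio of region 3 to region 4 within a list does not depend on a scale factor of the list. This pair was chosen after its values had been seen, so its values are given without a test. The ratio was 1.22 and 1.14 with sh2 and 1.54 and 1.49 with NT in RS4;11. It was 0.455 and 0.538 with sh2 and 0.507 and 0.677 with NT in SEM. It was 0.796 and 0.882 with sh2 and 1.12 and 0.962 with NT in RCH. The upstream peak was thus the stronger of the pair in every RS4;11 list and the weaker in every SEM list, with RCH between them, and no list of a line overlapped any list of another line. The fusion lines stood on either side of RCH. Among 552 pairs of neighbouring regions open in all 12 lists and at most 1000 bp apart, 1.63% kept the 3 lines apart in this way.

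On the log2 scale the ratio averaged 0.24 ± 0.07 in RS4;11 sh2 and 0.60 ± 0.04 in RS4;11 NT (SD, n = 2 libraries). In SEM it averaged -1.01 ± 0.17 with sh2 and -0.77 ± 0.29 with NT. In RCH it averaged -0.26 ± 0.10 with sh2 and 0.05 ± 0.15 with NT. The mean with sh2 was below that with NT in each line, by a mean of -0.31 ± 0.06 (SD, n = 3 lines), and the lists did not overlap in RS4;11 and RCH but did in SEM. A shift of the same direction without overlap in all 3 lines, which this pair did not show, was found in 0.543% of the 552 pairs, and 0.181% showed it together with the separation of the 3 lines. Pairs whose means merely shifted the same way in each line, as here, were not counted. These shares therefore do not say how rare the shift of this pair was.

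**Figure D2:**
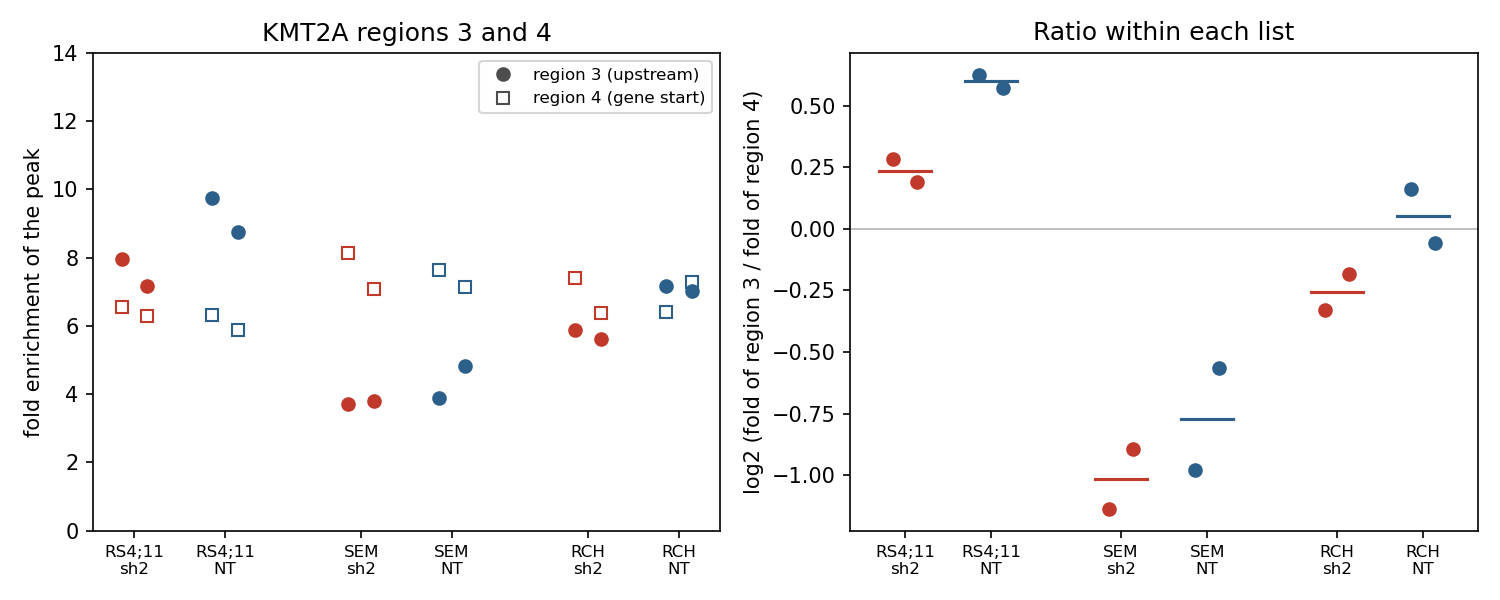
Left, fold enrichment of KMT2A regions 3 (filled circles) and 4 (open squares) in each list. Right, the log2 ratio of region 3 to region 4 within each list, with points for the 2 libraries of a sample and bars for their mean, sh2 left of NT in each line. RS4;11 lies above 0, SEM below -0.5 and RCH between them, and each sh2 mean is below its NT mean.

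Region 1 (chr11:118295440-118295956) had the highest mean fold of the window, 7.30 over 12 lists. Its fold was 8.17 and 7.24 with sh2 and 6.37 and 6.30 with NT in RS4;11, 7.85 and 9.12 with sh2 and 9.24 and 8.58 with NT in SEM, and 6.72 and 4.76 with sh2 and 6.10 and 7.15 with NT in RCH. Set against region 4 of the same list, it was 0.966 to 1.29 in SEM, 1.01 to 1.25 in RS4;11 and 0.748 to 0.981 in RCH. All RS4;11 lists lay above all RCH lists on this scale, and SEM overlapped both lines. No share of all regions with such an order was counted.

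Between the start region and the far end of the gene, the KMT2A locus was closed. In 11 of the 12 lists no peak was called over 85.0 to 85.3 kb between regions 4 and 6. In RS4;11 NT library 1 a single 200 bp peak broke this stretch, region 5 (chr11:118359259-118359458), with a fold of 4.55, at the 22.4th percentile of its list. Stretches this long are not rare in single lists, since 11.8% to 19% of the gaps of chromosome 11 were at least as long in the 11 lists. KMT2A fusions break inside the gene body, and the positions of the breakpoints were not analysed here. In the AFF1 window the longest stretch without a peak in any list was 30.0 kb, between regions 18 and 19.

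At the far end, region 6 (chr11:118392505-118393020) was open in all lists. Its fold was 5.74 and 4.07 with sh2 and 5.14 and 3.66 with NT in RS4;11, 7.20 and 6.46 with sh2 and 5.90 and 5.52 with NT in SEM, and 5.25 and 6.28 with sh2 and 6.10 and 5.37 with NT in RCH. The groups overlapped in RS4;11 and RCH, and in SEM both sh2 folds lay above both NT folds. Region 7 (chr11:118395471-118395830) differed between samples. Its fold was 9.74 and 6.25 with sh2 and 8.03 and 8.01 with NT in RS4;11, 6.10 and 6.81 in SEM sh2, 4.24 in SEM NT library 1, and 4.10 and 6.25 in RCH NT. It had no peak in SEM NT library 2 or in RCH sh2, and was the only KMT2A region open in both lists of 1 hairpin and in none of the other within a line. Region 8 (chr11:118401234-118402042), at the spacing of the TMEM25 start, had folds of 3.76 to 7.43 and was missing only in RS4;11 sh2 library 1.

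The AFF1 locus held 30 regions, from 200 to 1965 bp wide. Regions 3, 6, 13, 19 and 20 were open in all 12 lists, which is 5 of 30, or 16.7%, against 16.5% of all regions and 11.2% on chromosome 4. A further 5 were open in 11 lists, 15 in 2 to 10 lists and 5 in 1 list. RS4;11 had a peak in 24 of the regions, SEM in 25 and RCH in 18. Of all 130872 regions, RS4;11 had a peak in 96098, SEM in 79162 and RCH in 74027, so RCH was lowest there too. Only RS4;11 lists had a peak in 4 regions, only SEM lists in 4 and only RCH lists in 1. Regions with peaks of a single line were not counted over the genome, so these numbers have no background beside them.

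**Figure D3:**
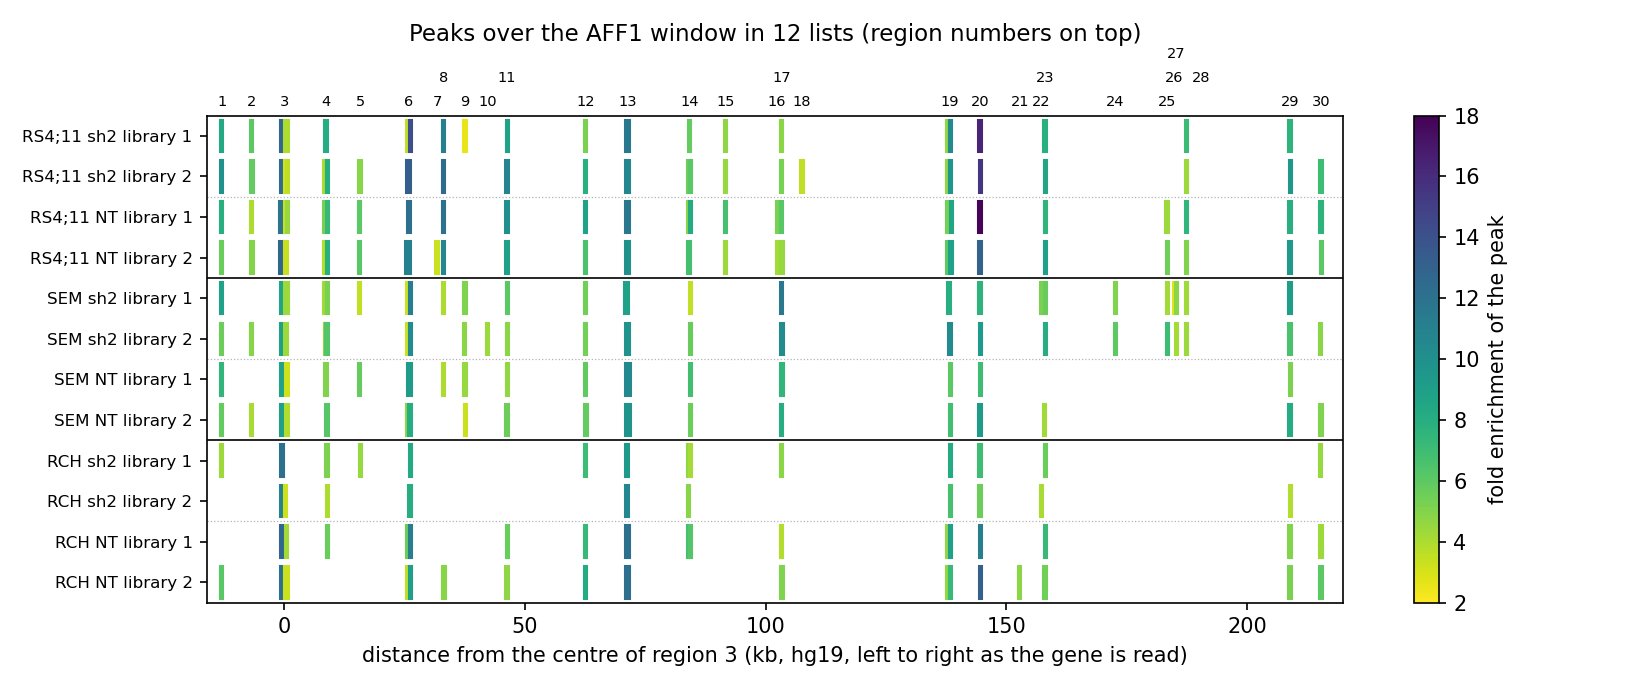
Peaks over the AFF1 window. The horizontal axis is the distance in kb from the centre of region 3, the upstream start region, and each row is 1 list, with sh2 rows above NT rows in each line. Bars are peaks, coloured by fold enrichment and drawn no narrower than a fixed width. Regions 3, 6, 13, 19 and 20 form unbroken columns, and regions 24, 25, 27 and 28 are filled in both SEM sh2 rows and empty in both SEM NT rows.

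Both AFF1 start regions, chosen among regions open in all lists, ranked high in them. Region 3 (chr4:87855800-87857764), at the upstream start, was the widest and had the highest mean fold, 11.1. Its fold was 12.7 and 12.5 with sh2 and 11.9 and 12.8 with NT in RS4;11, 8.68 and 8.90 with sh2 and 8.80 and 9.04 with NT in SEM, and 12.2 and 10.9 with sh2 and 12.8 and 12.2 with NT in RCH. It stood between the 71.9th and the 94.9th percentile of its lists. The region was a chain of 1 to 3 peaks per list, and the value is that of the strongest.

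Region 13 (chr4:87927411-87928742), at the downstream start, had folds of 11.6 and 10.7 with sh2 and 11.6 and 9.99 with NT in RS4;11, 8.76 and 9.79 with sh2 and 10.5 and 9.79 with NT in SEM, and 9.34 and 10.7 with sh2 and 12.2 and 12.2 with NT in RCH. Within a list, the downstream over the upstream start region was 0.912 and 0.855 with sh2 and 0.977 and 0.779 with NT in RS4;11, 1.01 and 1.10 with sh2 and 1.19 and 1.08 with NT in SEM, and 0.768 and 0.978 with sh2 and 0.954 and 1.01 with NT in RCH. The downstream start was the stronger in all 4 SEM lists, the weaker in all 4 RS4;11 lists, and the weaker in 3 of 4 RCH lists. The fusion lines thus stood on opposite sides of an equal fold. How often other pairs of regions did so was not counted. The difference of sh2 and NT in the log2 ratio averaged -0.09 ± 0.10 (SD, n = 3 lines).

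Line differences were larger at other AFF1 regions. Region 8 (chr4:87889612-87890194), 33.1 kb after region 3, had folds of 11.1 and 12.5 with sh2 and 11.9 and 10.6 with NT in RS4;11. In SEM it was called in 1 list with each hairpin (3.96 with sh2 and 3.97 with NT), and in RCH in NT library 2 alone (4.81). Relative to region 3 it reached 0.829 to 1.00 in RS4;11, 0.451 to 0.456 in SEM and 0.396 in RCH. It was a strong peak in every RS4;11 list and was called in 3 of the 8 lists of the other lines. Region 8 was picked after its values had been seen, and the share of all regions with such a pattern was not counted.

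Region 17 (chr4:87959955-87960360) was the counterpart in SEM. Its fold was 11.6 and 10.4 with sh2 and 7.53 and 8.01 with NT in SEM, against 4.78 and 5.28 with sh2 and 6.23 and 4.51 with NT in RS4;11, 4.76 in RCH sh2 library 1, and 3.81 and 5.08 in RCH NT, with no peak in RCH sh2 library 2. Relative to region 3 it was 1.34 and 1.17 with sh2 and 0.856 and 0.886 with NT in SEM, against 0.352 to 0.523 in RS4;11 and 0.299 to 0.417 in RCH. All SEM lists lay above those of the other lines, and within SEM both sh2 lists lay above both NT lists. The latter order was found in 38.6% of the other regions open in all 4 SEM lists. Region 17 was picked after its values had been seen. How many of all regions kept a line apart in this way was not counted.

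Region 20 (chr4:88001040-88001522), 144 kb after region 3, was the strongest single peak of the locus in RS4;11. Its fold was 16.4 and 15.5 with sh2 and 17.8 and 13 with NT in RS4;11, 7.67 and 9.26 with sh2 and 6.95 and 9.20 with NT in SEM, and 6.98 and 5.60 with sh2 and 11.2 and 13.2 with NT in RCH. Relative to region 3 it was 1.01 to 1.5 in RS4;11, 0.790 to 1.04 in SEM, and 0.575 and 0.513 with sh2 and 0.879 and 1.08 with NT in RCH. The sh2 lists of RCH lay below its NT lists on this scale. So did those of 44.9% of the regions other than region 3 that were open in all 4 RCH lists.

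Region 6 (chr4:87881917-87883336) had folds of 14.2 and 13.3 with sh2 and 12.2 and 11.1 with NT in RS4;11, 11.2 and 10.3 with sh2 and 9.19 and 8.08 with NT in SEM, and 8.27 and 8.04 with sh2 and 11.2 and 9.06 with NT in RCH. Relative to region 3, both sh2 lists lay above both NT lists in RS4;11 (1.12 and 1.07 with sh2, against 1.02 and 0.862 with NT) and in SEM (1.29 and 1.16 with sh2, against 1.04 and 0.894 with NT). In RCH both lay below (0.680 and 0.737 with sh2, against 0.878 and 0.745 with NT). 

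The fold of region 19 (chr4:87994448-87995624) was 10.4 and 9.61 with sh2 and 8.59 and 8.79 with NT in RS4;11, 7.96 and 10.3 with sh2 and 6.03 and 6.87 with NT in SEM, and 8.21 and 6.72 with sh2 and 8.97 and 7.22 with NT in RCH. Relative to region 3 it was 0.821 and 0.771 with sh2 and 0.722 and 0.686 with NT in RS4;11, and 0.917 and 1.16 with sh2 and 0.685 and 0.760 with NT in SEM, with the sh2 lists above the NT lists in each. In RCH they overlapped, at 0.676 and 0.615 with sh2 and 0.703 and 0.593 with NT. These orders were picked out after the values had been seen. On the same scale, both sh2 lists lay above both NT lists in 9.17% of the other regions open in all 4 lists of RS4;11 and in 38.6% of those of SEM, and both lay below in 44.9% of those of RCH.

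**Figure D4:**
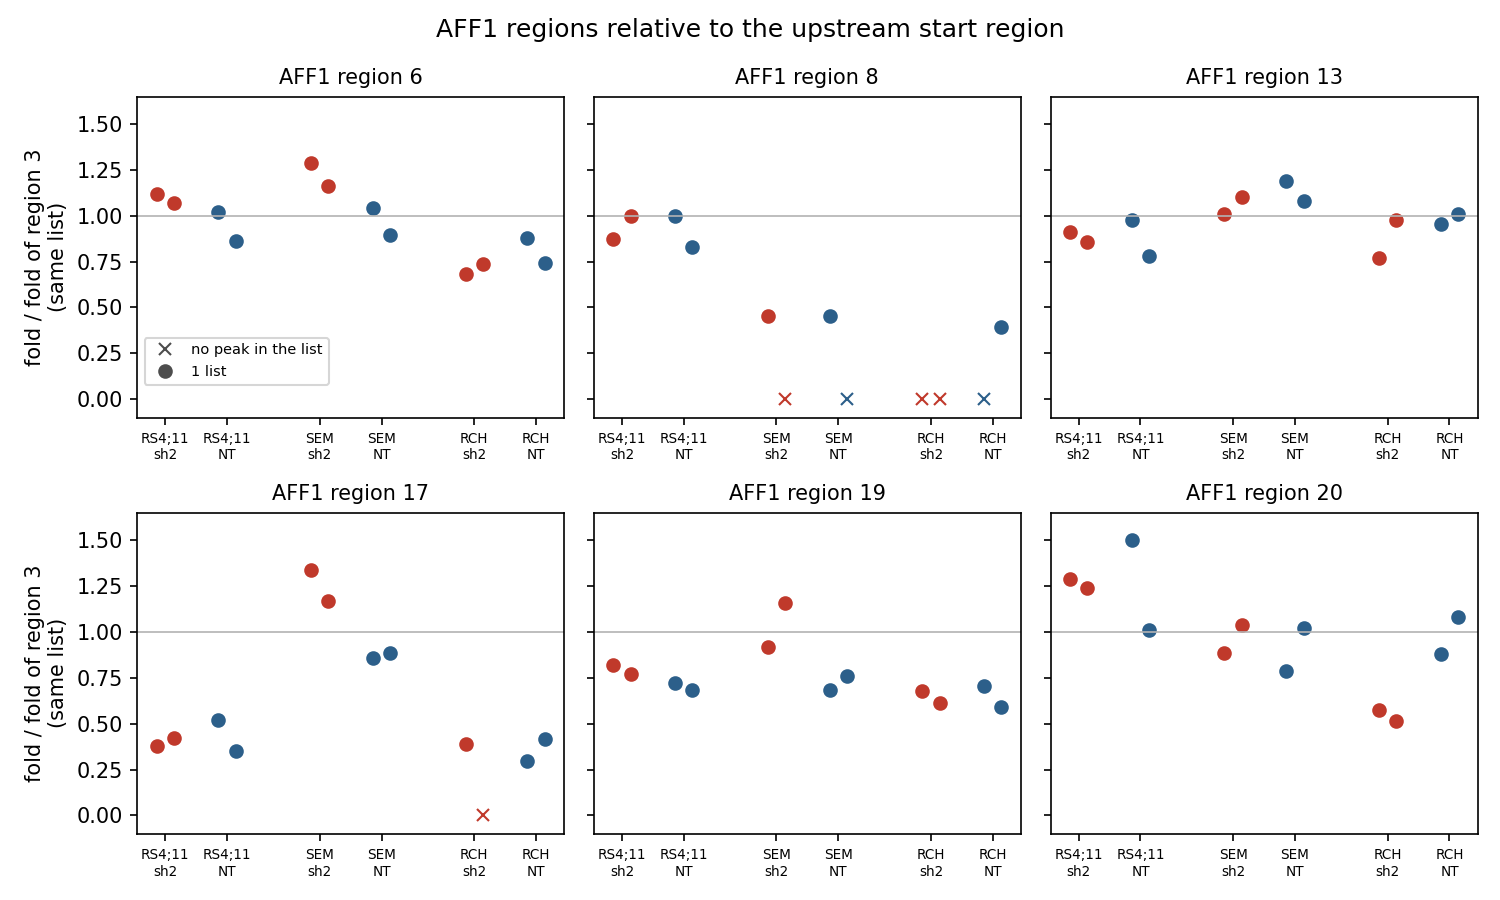
Fold enrichment of 6 AFF1 regions divided by that of region 3 in the same list, 1 point per list, sh2 (red) left of NT (blue) in each line. Crosses at 0 are lists without a peak, and the line at 1 marks a fold equal to that of region 3. Region 8 is high in RS4;11 and region 17 in SEM.

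The first comparison set the fusion lines against RCH. No region of either locus was open in all 8 lists of the fusion lines and closed in all 4 of RCH, where 1.44% of all regions were, and none was open in all RCH lists and closed in the fusion lines, where 0.889% were. Among NT lists both counts were also 0, against 3.62% and 3.23% of all regions. For AFF1 the NT count of regions open in the fusion lines alone was 1 without either SEM NT library or RCH NT library 2, and 2 without RCH NT library 1, which also gave 1 region open in RCH alone. Among sh2 lists KMT2A region 7 and AFF1 regions 11 and 28 were open in both fusion lines and closed in RCH, that is 1 of 6 and 2 of 27 regions, against 8.91% of all regions and 11.8% on chromosome 4. None was open in RCH alone, where 2.53% of all regions were. Without RCH sh2 library 1 the AFF1 count was 6, and with lists of equal length it was 0.

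AFF1 region 11 (chr4:87902809-87903287) had folds of 8.77 and 10.8 with sh2 and 10.1 and 8.90 with NT in RS4;11, 6.10 and 4.80 with sh2 and 4.67 and 5.59 with NT in SEM, and 5.64 and 4.70 in RCH NT, with no peak in RCH sh2. AFF1 region 28 (chr4:88043978-88044305) had 7.11 and 4.36 with sh2 and 7.56 and 5.00 with NT in RS4;11, and 4.25 and 4.41 in SEM sh2, with no peak in SEM NT or in RCH. AFF1 region 15 (chr4:87948306-87948630) was open in all 4 RS4;11 lists, with 4.69 and 4.52 with sh2 and 6.74 and 4.34 with NT, and in no other. AFF1 region 9 (chr4:87894163-87894517) was open in all 4 SEM lists, with 5.10 and 4.79 with sh2 and 4.53 and 3.31 with NT, and otherwise in RS4;11 sh2 library 1 alone (2.53). In its RS4;11 lists region 15 stood between the 15.7th and the 51.1st percentile, and region 9 between the 2.32nd and the 28.9th in SEM. In regions 15 and 9 the fusion lines differed from each other, but both were picked after the values had been seen for being open in a single line or nearly so. The share of all regions with such a pattern was not counted.

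The number of KMT2A peaks was 5.5 in RS4;11 sh2, 6.0 in SEM sh2 and 5.0 in RCH sh2 (mean of 2 lists), and 7.0 in RS4;11 NT, 5.5 in SEM NT and 6.0 in RCH NT. The log2 ratio of the fusion lines to RCH was 0.20 with sh2 and 0.05 with NT. AFF1 averaged 23 peaks in RS4;11 sh2, 24.5 in SEM sh2 and 12 in RCH sh2, and 25.5 in RS4;11 NT, 17 in SEM NT and 17.5 in RCH NT. Its log2 ratio was 0.98 with sh2 and 0.25 with NT, and that of all peaks of chromosome 4 was 0.95 with sh2 and 0.30 with NT. For KMT2A the ratios of 0.20 with sh2 and 0.05 with NT stood beside 0.51 with sh2 and 0.17 with NT for all peaks of chromosome 11. The AFF1 ratios lay close to those of chromosome 4, and the KMT2A ratios lay below those of chromosome 11. Over all chromosomes the ratio was 0.55 with sh2 and 0.21 with NT.

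These ratios depended on which peaks were counted. With lists of equal length they were -0.15 (sh2) and -0.36 (NT) for KMT2A, the opposite direction, and 0.17 (sh2) and 0.11 (NT) for AFF1. With only peaks above the pooled median fold of 6.37 they were 1.11 (sh2) and -0.585 (NT) for KMT2A, and 1.04 (sh2) and 0.50 (NT) for AFF1. This cut was the same for all lists, though folds were not normalized between them. It lay above the median fold of every RCH list and below that of every RS4;11 list (5.32 in RCH sh2 library 2, 7.10 in RS4;11 sh2 library 1). KMT2A region 4 of RCH sh2 library 2 barely passed it, with 6.36743 against 6.36688. Covered bases gave 1.12 (sh2) and 0.56 (NT) for AFF1, and 0.15 (sh2) and 0.10 (NT) for KMT2A. Without SEM NT library 1 the KMT2A ratio with NT was -0.0203. The AFF1 ratios changed in size but kept their direction in every alternative. With 2 lines against 1 no test was made.

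The second comparison set sh2 against NT. In the KMT2A window, the number of peaks was 5 and 6 with sh2 and 7 and 7 with NT in RS4;11, 6 and 6 with sh2 and 6 and 5 with NT in SEM, and 5 and 5 with sh2 and 6 and 6 with NT in RCH. The mean log2 ratio of sh2 to NT was -0.16 ± 0.25 (SD over 3 lines). An exact sign-flip permutation test over the lines, two-sided, gave p = 0.5, and no p under 0.25 is possible with 3 lines. The direction was the opposite with lists of equal length (mean 0.0048) and with only peaks above the pooled median fold (0.13). KMT2A peaks changed by -21.4% in RS4;11, and all peaks of the lists also by -21.4%. In RCH the change was -16.7% over KMT2A and -24.4% over the lists, and in SEM it was 9.09% over KMT2A and 16.1% over the lists. All peaks of chromosome 11 changed by -17.4% in RS4;11, 16.2% in SEM and -22.2% in RCH.

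In the AFF1 window, the number was 21 and 25 with sh2 and 26 and 25 with NT in RS4;11, 25 and 24 with sh2 and 16 and 18 with NT in SEM, and 14 and 10 with sh2 and 17 and 18 with NT in RCH. The sh2 lists lay above the NT lists in SEM and below them in RCH, and shared a value of 25 in RS4;11. A region that held several peaks of a list entered these numbers more than once. AFF1 regions open in at least 1 list numbered 15 with sh2 and 16 with NT in RCH, and 25 with sh2 and 18 with NT in SEM. In RS4;11 AFF1 peaks changed by -9.8% and all peaks of chromosome 4 by -32.7%. The changes were 44.1% over AFF1 and 29.5% over the chromosome in SEM, and -31.4% over AFF1 and -40.5% over the chromosome in RCH. All peaks of the lists changed by -21.4% in RS4;11, 16.1% in SEM and -24.4% in RCH. In RCH the AFF1 number thus fell less than that of its chromosome and more than that of its lists. The mean log2 ratio was -0.06 ± 0.54 (SD over 3 lines), with p = 0.75 in the same exact test. It was 0.0911 with lists of equal length, 0.0188 without RCH sh2 library 2 and -0.12 with only peaks above the pooled median fold. Covered bases gave -0.16 ± 0.38 (p = 0.75 by the same exact test). In SEM the covered bases changed by 17.6%, less than the number of peaks did.

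**Figure D5:**
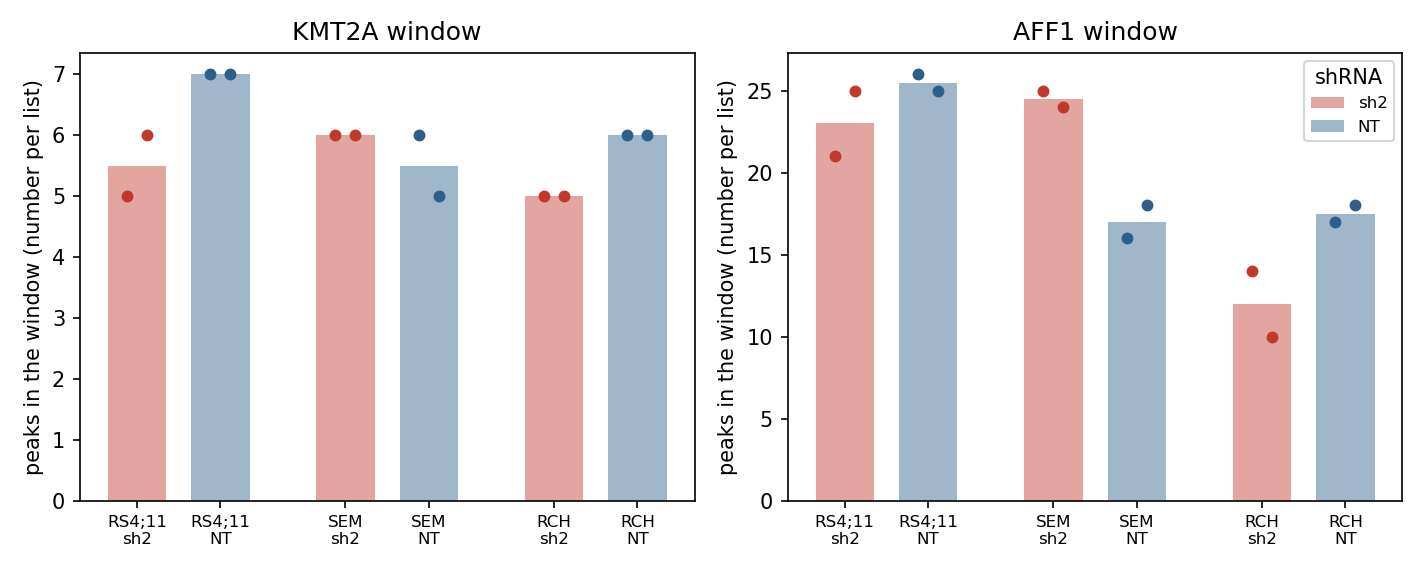
Number of peaks per list in the KMT2A and AFF1 windows. Bars are the mean of the 2 libraries of a sample and points the libraries, sh2 left of NT in each line. AFF1 peaks range from 24 to 25 in SEM sh2 and from 16 to 18 in SEM NT, and from 10 to 14 in RCH sh2 and from 17 to 18 in RCH NT.

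Regions open with 1 hairpin only were few. In SEM, AFF1 regions 24, 25, 27 and 28 were open in both sh2 lists and in no NT list, 4 of 25 regions, against 7.69% of all SEM regions and 10.4% on chromosome 4. They lay 173 to 187 kb after region 3, next to each other, with region 26 (SEM sh2 library 1 alone, 2.71) between them. Region 24 (chr4:88029310-88029594) had folds of 5.12 and 5.96 and region 27 (chr4:88041953-88042251) of 4.80 and 4.13 in SEM sh2, and no other list had a peak in either. Region 25 (chr4:88039998-88040369) had 4.20 and 7.05 in SEM sh2. The sh2-only count in SEM was 1 with lists of equal length, and 0 when peaks at or below the pooled median fold were left out. No NT-only region was found in SEM, where 2.59% of all regions were NT-only.

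In RS4;11 regions 16 and 25 of AFF1 were NT-only, 2 of 24 against 9.79% of all regions and 13.3% on chromosome 4, and no region was sh2-only (0.854% of all regions). Region 16 (chr4:87959037-87959294) was called at 5.20 and 4.15 in RS4;11 NT and in no other list. Region 25 had 4.42 and 5.53 in RS4;11 NT, so it was NT-only in RS4;11 and sh2-only in SEM. In RCH, AFF1 region 11 and KMT2A region 7 were NT-only, 1 of 18 and 1 of 6, against 10.6% of all regions, and no region was sh2-only (1.9%). In RS4;11 and SEM no KMT2A region was in either class. With so few members these counts cannot be set apart from the background shares. The AFF1 counts hung on single lists. The NT-only count in RS4;11 was 4 without sh2 library 2. In RCH it was 5 without sh2 library 1, 2 without sh2 library 2 and 3 without NT library 1, and the sh2-only count was 1, 1 and 2 without the same lists. In RS4;11 the sh2-only count was 1 without either sh2 library. KMT2A gave 1 NT-only region in RS4;11 without sh2 library 2 or without either NT library, and 1 sh2-only region in SEM without NT library 1.

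Among regions open in all 4 lists of a line, those whose folds did not overlap between sh2 and NT were counted. In RS4;11 both sh2 folds lay above both NT folds in 1 of 5 KMT2A regions (region 1) and 5 of 17 AFF1 regions (1, 2, 4, 6 and 19), against 12.9% of all regions, and below them in 1 of 5 and 1 of 17 (AFF1 region 14), against 31.2%. In SEM they lay above in 1 of 5 (KMT2A region 6) and 4 of 13 (AFF1 regions 6, 9, 17 and 19), against 36.1%, and below in 1 of 5 and 1 of 13 (AFF1 region 12), against 14.4%. In RCH they lay above in 0 of 5 and 0 of 5, against 6.27%, and below in 2 of 5 (KMT2A regions 3 and 8) and 4 of 5 (AFF1 regions 3, 6, 13 and 20), against 59.5%. No AFF1 region was above in all 3 lines, as 0.195% of regions open in all 12 lists were.

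The remaining AFF1 regions are given by range. Regions 4, 12, 14 and 29 were open in 11 lists, with folds of 3.55 to 9.47. Region 1 was open in 10 lists (4.31 to 9.94), region 23 in 10 (4.29 to 8.96), region 30 in 8 (4.35 to 7.67) and region 5 in 6 (3.44 to 6.16). Region 2 (chr4:87849800-87850319) was open in all 4 RS4;11 lists, with 6.04 and 5.86 with sh2 and 3.94 and 4.98 with NT, and in library 2 of each hairpin in SEM, with 4.90 with sh2 and 4.10 with NT. No RCH list had a peak in it. Region 22 was open in 2 lists, and regions 7, 10, 18, 21 and 26 in 1 list each, with folds of 2.71 to 5.20.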

How the data were processed

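ATAC-seq peak lists of 6 samples, 2 lists each, were used. Bowtie2, MACS2 and hg19 are named per the submitters' processing notes. On their settings, duplicate removal, the transposase shift and read numbers, nothing is given in the sources used here. The value deposited by the authors in column 5 was read, from its range, as a fold enrichment, a ratio to the background within a library. Depth is unknown, so no depth-based interval is given.

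Peaks on the 22 autosomes and X were merged where they touched or overlapped (checked with bedtools 2.31.1), and a list was open in a region with at least 1 bp of overlap. A region with several peaks of a list took the highest fold. Counts of regions were set beside the same counts over all regions. Lines paired sh2 with NT, as named in the sample titles, in an exact sign-flip test over 3 lines. The step that sorts regions into classes was run on simulated lists with regions planted in either class. The planted regions met the definition of their class, so this checked the code and not the rate of false calls or of missed peaks. Library numbers only name the lists.

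Members, windows and lists were chosen with earlier results of these data known. Region values are printed by a rule that names regions open in all lists, those specific to a hairpin or to the fusion lines, and the strongest and widest of each window. Regions 2, 8, 9, 15 and 17 of AFF1, the pair ratios, the folds relative to region 3 and the counts among sh2 lists were added after the values were seen. Alternatives were lists of equal length, only peaks above the pooled median fold (6.37), 50% coverage of a region, covered bases, no pairing and each list left out. The planned genes of KMT2A complexes and of elongation were not analysed here, for want of an hg19 annotation. Python 3.11.15, numpy 2.4.6, pandas 2.3.3 and matplotlib 3.10.9 were used.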

Additional observations from a re-analysis of the deposited data

Results flagged for a closer look

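The number of AFF1 peaks moved in opposite directions with sh2 in SEM and in RCH, with every sh2 list beyond every NT list. The log2 ratio of sh2 to NT was 0.53 in SEM and -0.54 in RCH, from 25 and 24 against 16 and 18 peaks and from 14 and 10 against 17 and 18. The difference between the lines was not tested. A region with several peaks of a list was counted more than once. RCH NT library 1 had 2 peaks in each of regions 3, 6, 14 and 19, and RCH sh2 library 1 in region 14 alone. Counted as regions, these lists had 4 each between the start regions, 7 and 6 after them, and 0 and 1 before them. RCH regions open in both lists numbered 7 with sh2 and 11 with NT, and those open in at least 1 list 15 and 16. All peaks of chromosome 4 moved the same way, by 29.5% in SEM and by -40.5% in RCH. So did all peaks of the lists, by 16.1% in SEM and by -24.4% in RCH. Groups of 1 sample with 2 lists were too small to look for single outlying lists.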

How the results depend on the processing

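Lines paired the samples. Without pairing by replicate block the mean log2 ratio of sh2 to NT kept its value in the unpaired exact permutation test, -0.16 (p = 0.5) for KMT2A and -0.06 (p = 0.8) for AFF1, where the smallest possible p is 0.1. Peak numbers depended on list length. With lists of equal length the ratio of sh2 to NT was 0.0048 for KMT2A and 0.0911 for AFF1, and that of the fusion lines to RCH was -0.15 (sh2) and -0.36 (NT) for KMT2A and 0.17 (sh2) and 0.11 (NT) for AFF1. With the stricter fold the KMT2A values were 0.13 for sh2 to NT and 1.11 (sh2) and -0.585 (NT) for fusion lines to RCH, and AFF1 gave 1.04 (sh2) and 0.50 (NT) for the latter. That cut was not adjusted to the fold level of each list. Covered bases gave 1.12 (sh2) and 0.56 (NT) for AFF1. With each list left out, KMT2A ranged from -0.21 to -0.12 (sh2 to NT) and, for fusion lines to RCH, from 0.13 to 0.26 (sh2) and from -0.0203 (without SEM NT library 1) to 0.11 (NT). AFF1 ranged from -0.14 to 0.0188 (without RCH sh2 library 2) for sh2 to NT and, for fusion lines to RCH, from 0.76 to 1.25 (sh2) and from 0.21 to 0.29 (NT).

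Counts of regions were small. Over peak numbers, pair ratios and counts together, values kept their direction and, where no test was made, stayed within 1 SD (counts within 1.5 times) in 22 comparisons with 50% coverage (2 moved), in 18 with equal lists (8 moved and 4 turned), in 19 with the stricter fold (9 moved and 2 turned) and in 191 with a list left out (23 moved and 2 turned). Most counts were 0 to begin with, and a count that stayed at 0 was tallied as kept. With a list left out, the same result was tallied again for each list. The tallies therefore do not measure how robust the results were. Equal lists gave 1 NT-only KMT2A region in SEM and 0 in RCH, and for AFF1 0 NT-only in RS4;11 and RCH, 1 sh2-only in SEM and 0 open in the fusion lines alone among sh2 lists. The stricter fold gave 1 sh2-only KMT2A region each in RS4;11 and SEM and 0 open in the fusion lines alone among sh2 lists. For AFF1 it gave 1 NT-only in RS4;11, 0 in RCH, 0 sh2-only in SEM and 1 open in the fusion lines alone among sh2 lists. With 50% coverage 1 AFF1 region was open in the fusion lines alone, over 12 lists and over NT lists. With each list left out, KMT2A had 0 to 1 NT-only in RS4;11 and 0 to 1 sh2-only in SEM. AFF1 had 2 to 4 NT-only and 0 to 1 sh2-only in RS4;11, 4 to 6 sh2-only in SEM, 1 to 5 NT-only and 0 to 2 sh2-only in RCH, 0 to 2 open in the fusion lines alone and 0 to 1 in RCH alone among NT lists, and 2 to 6 in the fusion lines alone among sh2 lists. The cause of these moves was not tested. The mean log2 difference of the KMT2A pair was -0.37 to -0.24 with each list left out. Unknown depth limits every absence of a peak.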
